A study of Homo sapiens with 8 samples.

Results

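The 9 genes described here belong to the NRF2 antioxidant pathway and were chosen by symbol from the 23228 genes listed in each library: NFE2L2, which encodes NRF2, its inhibitor KEAP1, and the target genes HMOX1, NQO1, GCLM, GCLC, TXNRD1, SRXN1 and OSGIN1. They were measured by RNA-seq in BT-549, an established TNBC (triple negative breast cancer) cell line. Cells received vehicle (DMSO), EC359 at 100 nM, vorinostat at 10 µM, or EC359 with vorinostat at those doses, all for 24 h, and each of the 4 groups had 2 libraries. EC359 is a small-molecule inhibitor of LIFR, the receptor of leukemia inhibitory factor, and vorinostat (SAHA) is an inhibitor of histone deacetylases. The question was how the antioxidant genes stood under each drug and under both. The study's methods describe its in vitro assays in general as done in biological replicates, and the labels do not say whether the 2 libraries of a group came from separate cultures. The p-values measure the spread between these libraries, part or all of which may be technical.

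Each library held between 19069450 and 24759041 reads counted on genes, and 13694 genes passed the filter on low counts, all 9 NRF2 pathway genes among them. Across genes, the SD of the log2 ratio of replicate libraries was 0.56 for EC359 and 0.31 to 0.45 for the other 3 groups. The mesenchymal markers VIM and FN1 had at least 2094 and 1915 CPM (reads per 1e6 reads counted on genes) in every library. ESR1 and PGR had at most 20 and 1 counts, ERBB2 had 11.5 to 104 CPM, and of the epithelial markers CDH1 and EPCAM had at most 2.25 and 4.35 CPM. The leukocyte marker PTPRC and the endothelial marker PECAM1 had at most 15 and 4 counts.

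NRF2 is a transcription factor that the KEAP1 adaptor of a CUL3 ubiquitin ligase holds at a low level in unstressed cells. Oxidants and electrophiles modify cysteines of KEAP1, NRF2 then escapes degradation, pairs with a small MAF protein and binds antioxidant response elements, which BACH1 can occupy as a repressor. Its targets make glutathione, keep thioredoxin and peroxiredoxin reduced, break down heme and reduce quinones. NRF2 is controlled largely at the level of the protein, which these data do not measure.

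The core of the antioxidant response element, TGACNNNGC on either strand, was looked up in RefSeq promoter windows of build GRCh38.p14 that run from 250 bases before a gene's start to 50 bases after it. Of the 9 genes, 8 had a window, and the table held none for HMOX1. A match lay in 3 of the 8 genes, beside 16.1% of 27305 genes with such windows. Sequence further from a start was not searched, so a gene without a match here may still carry the element. No match overlapped an AP-1 site, searched as TGANTCA on both strands, which 9.37% of genes held. In OSGIN1 an AP-1 site lay 97 to 91 bases before the start. The 30 bases around each match follow, to set the genes that carry the element near a start beside their responses, 5′ to 3′ on the gene's strand, with the match in capitals.
GCLM, match 34 to 26 bases before the start, chr1:93909445-93909474, minus strand: tacgatttctGCTTAGTCAttgtcttccag
KEAP1, match 31 to 23 bases before a start, chr19:10502783-10502812, minus strand: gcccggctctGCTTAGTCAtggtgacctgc
KEAP1, match 54 to 46 bases before the same start, chr19:10502806-10502835, minus strand: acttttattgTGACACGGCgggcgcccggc
TXNRD1, match 102 to 94 bases before the downstream start, chr12:104286920-104286949, plus strand: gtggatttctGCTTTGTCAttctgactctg
TXNRD1, match 99 to 91 bases before the upstream start, chr12:104215670-104215699, plus strand: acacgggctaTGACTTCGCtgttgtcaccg
TXNRD1, match beginning 8 bases before the upstream start, chr12:104215761-104215790, plus strand: gcgtccttcgGCTCCGTCAgttcccacagg
GCLM and the nearer KEAP1 match hold the same 9 letters, TGACTAAGC on the opposite strand, and the downstream TXNRD1 match is TGACAAAGC there. A match is a description of these letters, and none of the windows shows whether NRF2 was bound.

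Of the 9 genes, 3 rose under EC359 (HMOX1, OSGIN1 and GCLM), and 6 rose under vorinostat and under both drugs together (HMOX1, OSGIN1, SRXN1, TXNRD1, GCLC and GCLM). KEAP1 fell in both groups with vorinostat. NFE2L2 and NQO1 were called in none of these comparisons. To be called, a gene needed an edgeR quasi-likelihood p below 0.01 after Benjamini-Hochberg adjustment over the 13694 genes, and a log2 fold change beyond 1 in either direction. By this rule EC359 raised 1.94% of all tested genes and lowered 1.72%. Vorinostat raised 16.8% and lowered 13.3%, and the combination raised 19.5% and lowered 15.3%. These 3 comparisons share the vehicle libraries and are not independent. The 9 genes had median log2 fold changes of 0.77 after EC359, 1.76 after vorinostat and 1.93 after both drugs, beside -0.02, 0.03 and 0.07 over all tested genes. The 9 genes were chosen with earlier results of these data known, so these medians and counts describe them and test nothing. HMOX1, OSGIN1 and GCLM were called under EC359 also when either EC359 library was left out. Against EC359 alone, the combination had 6 of the 9 called (SRXN1, OSGIN1, GCLC, HMOX1 and TXNRD1 higher, KEAP1 lower), beside 33.7% of all genes, and 4 without combination library 1. A lower count from fewer cells of a kind and from less RNA per cell cannot be told apart in such bulk samples.

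**Figure D1:**
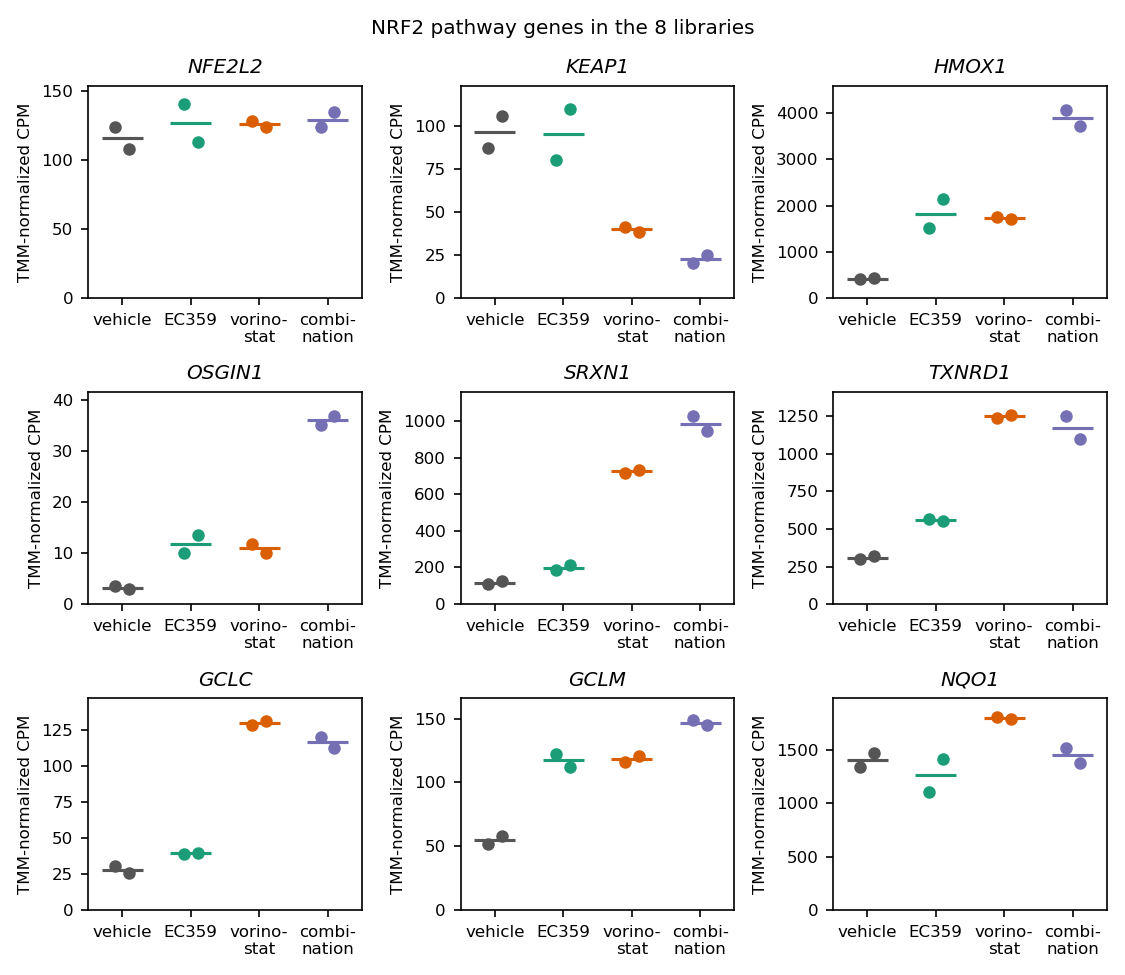
TMM-normalized CPM (vertical axes, each from 0) of the 9 genes in the 8 libraries; each point is 1 library and each line the mean of the 2 libraries of a group. NFE2L2 stayed between 108 and 141 CPM, KEAP1 was lowest and HMOX1 and OSGIN1 were highest in the combination libraries.

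NFE2L2 itself (chromosome 2 from 178083395 to 178257484 on GRCh37, minus strand) had 124 and 108 CPM in the vehicle libraries, 141 and 113 with EC359, 129 and 124 with vorinostat, and 124 and 134 with both drugs, after TMM normalization. Each treated group overlapped vehicle. Its log2 fold change against vehicle had a 95% confidence interval of -0.15 to 0.41 under EC359, -0.16 to 0.40 under vorinostat and -0.13 to 0.43 under the combination. Each interval lay inside a log2 change of 1. The sign against vorinostat and against EC359 alone turned with other scalings, at values near 0.

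KEAP1 (chromosome 19 from 10596801 to 10614234, minus strand), the adaptor that targets NRF2 for degradation, had 87.4 and 106 CPM with vehicle, 80.6 and 109.8 after EC359, 41.6 and 38.5 after vorinostat, and 20.4 and 24.9 after both. The libraries with vorinostat lay below all those without it, and the combination libraries below the vorinostat libraries, while EC359 alone overlapped vehicle. KEAP1 fell by 1.27 on the log2 scale under vorinostat (standard error 0.17, adjusted p = 1.6e-04, edgeR) and by 2.09 under the combination (standard error 0.18, adjusted p = 7.1e-06, edgeR). Adding EC359 to vorinostat lowered it by a further log2 change of -0.82 (standard error 0.17, adjusted p = 0.0086, edgeR), which passed the test and not the fold threshold; at that p alone 5.26% of all genes were lower. The adjusted p of this step in KEAP1 was 0.015 to 0.075 (edgeR) when any 1 of the vehicle, vorinostat or combination libraries was left out, above the threshold each time. Under EC359 alone the interval of its log2 change was -0.39 to 0.35.

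HMOX1 (chromosome 22 from 35776354 to 35790207, plus strand) encodes heme oxygenase 1, which breaks heme down to biliverdin, carbon monoxide and iron. It had 402 and 429.6 CPM with vehicle, 1512.5 and 2143 after EC359, 1743 and 1710.1 after vorinostat, and 4063 and 3722 after both. The libraries of each drug alone lay above vehicle, the combination lay above both, and the EC359 and vorinostat libraries overlapped. HMOX1 rose 4.39-fold under EC359 (log2 2.14, standard error 0.15, adjusted p = 2.4e-05, edgeR), 4.15-fold under vorinostat (log2 2.05, standard error 0.15, adjusted p = 3.6e-06, edgeR) and 9.36-fold under the combination (log2 3.23, standard error 0.15, adjusted p = 3.0e-07, edgeR). Adding EC359 to vorinostat raised it by 1.17 on the log2 scale (standard error 0.14, adjusted p = 5.9e-04, edgeR). The adjusted p of that step was 0.015 without combination library 1 and 0.014 without either vorinostat library (edgeR).

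OSGIN1 (chromosome 16 from 83964916 to 83999937, plus strand), an oxidative stress-induced growth inhibitor, followed the same order at a far lower level. It had 3.45 and 2.99 CPM with vehicle, 9.94 and 13.6 after EC359, 11.8 and 10.1 after vorinostat, and 35.2 and 36.8 after both, from 64 to 720 reads a library. The 2 drugs alone overlapped each other and lay above vehicle, and both combination libraries lay above all others. OSGIN1 rose by 1.86 on the log2 scale after EC359 (standard error 0.20, adjusted p = 3.1e-04, edgeR), 1.76 under vorinostat (standard error 0.20, adjusted p = 5.7e-05, edgeR) and 3.48 under the combination (standard error 0.20, adjusted p = 7.3e-07, edgeR). On adding EC359 to vorinostat it rose by 1.72 (standard error 0.18, adjusted p = 2.3e-04, edgeR). In that comparison 3.37% of all genes were called higher, and HMOX1 and OSGIN1 were the 2 of the 9 genes. With only the vehicle and EC359 libraries in the fit, the adjusted p of OSGIN1 under EC359 was 0.012 (edgeR).

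SRXN1 and TXNRD1 serve the enzymes that remove peroxides: sulfiredoxin 1 repairs peroxiredoxins that hydrogen peroxide has overoxidized, and thioredoxin reductase 1 is the selenoprotein that reduces cytosolic thioredoxin with NADPH. SRXN1 (chromosome 20 from 627259 to 633844, minus strand) had 109.6 and 123 CPM with vehicle, 184 and 213 after EC359, 717 and 733 after vorinostat, and 1026 and 945 after both. The 4 groups stood apart from each other in that order. TXNRD1 (chromosome 12 from 104609557 to 104744085, plus strand) had 298 and 317 CPM with vehicle, 564 and 554 after EC359, 1243 and 1260.2 after vorinostat, and 1251 and 1099.6 after both. Here the combination overlapped vorinostat alone. A same-strand protein-coding gene model spans 90.7% of the SRXN1 transcript, and its reads cannot be told apart from those of SRXN1.

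SRXN1 had the largest vorinostat response of the 9 genes, at 2.64 on the log2 scale (standard error 0.11, adjusted p = 2.5e-07, edgeR), and 3.08 under the combination (standard error 0.11, adjusted p = 7.1e-08, edgeR). TXNRD1 rose by 2.03 under vorinostat (standard error 0.09, adjusted p = 3.3e-07, edgeR) and by 1.93 under the combination (standard error 0.09, adjusted p = 2.5e-07, edgeR). EC359 alone moved SRXN1 by 0.77 (standard error 0.10, adjusted p = 0.0012, edgeR) and TXNRD1 by 0.86 (standard error 0.09, adjusted p = 2.2e-04, edgeR), changes that passed the test below the fold threshold. With the adjusted p alone, 5 of the 9 genes were higher under EC359, beside 3.81% of all genes. Adding EC359 to vorinostat changed SRXN1 by 0.44 (adjusted p = 0.012, edgeR) and TXNRD1 by -0.09 (adjusted p = 0.46, edgeR, interval -0.28 to 0.10).

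GCLC and GCLM encode the catalytic and the modifier subunit of glutamate-cysteine ligase, the rate-limiting enzyme of glutathione synthesis. GCLC (chromosome 6 from 53362139 to 53481768, minus strand) had 30.5 and 25.5 CPM with vehicle, 39.2 and 39.7 after EC359, 128 and 131 after vorinostat, and 121 and 113 after both. GCLM (chromosome 1 from 94350755 to 94375012, minus strand) had 51.5 and 58.1 CPM with vehicle, 122 and 112 after EC359, 116 and 121 after vorinostat, and 149 and 145 after both. The EC359 and vorinostat libraries overlapped for GCLM, while for GCLC the vorinostat libraries lay far above the EC359 libraries. GCLM rose by 1.10 under EC359 (standard error 0.10, adjusted p = 1.1e-04, edgeR) and 1.11 under vorinostat (standard error 0.10, adjusted p = 1.3e-05, edgeR), and GCLC by 2.22 under vorinostat (standard error 0.11, adjusted p = 5.9e-07, edgeR), all on the log2 scale. GCLC changed by 0.49 under EC359 (standard error 0.11, adjusted p = 0.015, edgeR). Under the combination GCLM rose by 1.42 and GCLC by 2.06 (adjusted p = 2.2e-06 and 5.5e-07, edgeR).

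The balance of the subunits was also followed. The ratio of GCLC to GCLM in CPM per kilobase of transcript was 0.764 and 0.566 in the vehicle libraries, 0.413 and 0.455 with EC359, 1.43 and 1.40 with vorinostat, and 1.05 and 1.01 with both. The groups did not overlap, with EC359 below vehicle, and vorinostat above the combination and both above vehicle. The ratio was described without a test.

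NQO1 (chromosome 16 from 69740899 to 69760571, minus strand) encodes NAD(P)H quinone dehydrogenase 1, a common readout of NRF2 activity. It had 1341 and 1472 CPM with vehicle, 1110.25 and 1419.7 after EC359, 1807 and 1789.8 after vorinostat, and 1524 and 1379 after both. The vorinostat libraries were the highest, and the other 3 groups overlapped. Its log2 fold change was -0.15 under EC359 (interval -0.42 to 0.11), 0.35 under vorinostat (interval 0.09 to 0.62, adjusted p = 0.024, edgeR) and 0.05 under the combination (interval -0.22 to 0.31). An antisense lncRNA overlaps 22.8% of the NQO1 transcript, and without a known strand setting its reads cannot be told apart. NQO1 was already the most abundant of the 9 transcripts per length under vehicle.

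**Figure D2:**
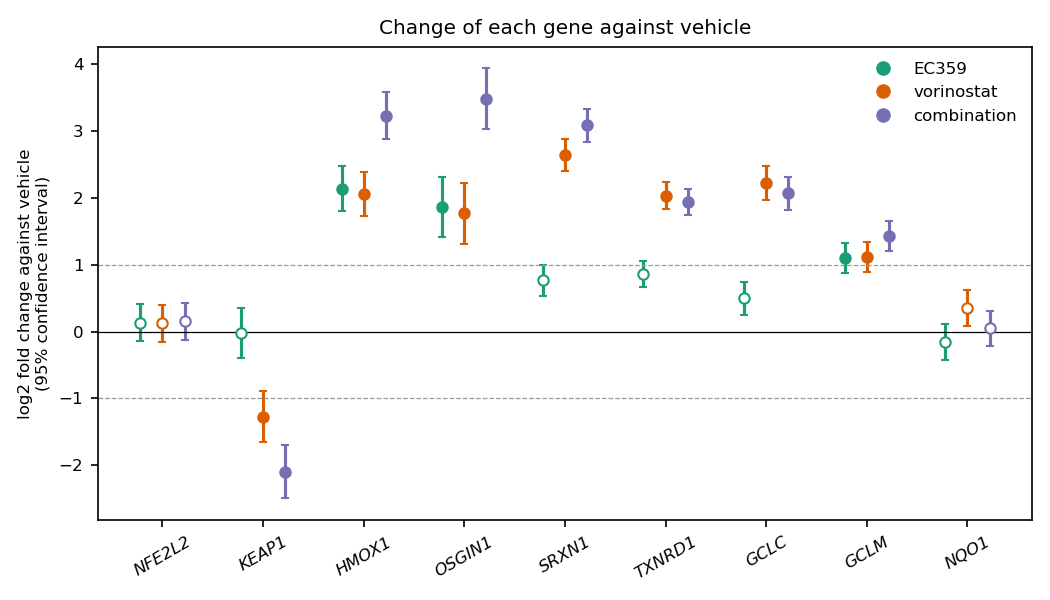
Log2 fold change against vehicle (vertical axis) of the 9 genes under EC359, vorinostat and the combination, with 95% confidence intervals from the edgeR fit; filled points passed both thresholds, open points did not, and dashed lines mark a log2 change of 1 in each direction. HMOX1, OSGIN1 and GCLM have 3 filled points, and NFE2L2 and NQO1 have none.

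Per kilobase of the canonical transcript, NQO1 led under vehicle with 558 CPM per kilobase, followed by HMOX1 with 268, TXNRD1 with 79.7, NFE2L2 with 47.5, SRXN1 with 46.1, KEAP1 with 37.6, GCLM with 11.2, GCLC with 7.39 and OSGIN1 with 1.67. Of these neighbours only NFE2L2 and SRXN1 overlapped. HMOX1 led in the 3 treated groups, with 1176 CPM per kilobase after EC359, 1111 after vorinostat and 2505 after both, and NQO1 came second in each of them. Under the combination SRXN1 with 389.9 CPM per kilobase lay above TXNRD1 with 304, GCLC and GCLM overlapped at 30.9 and 30.1, and KEAP1 was last with 8.82. NFE2L2 came next after these 4 genes in the 3 treated groups, at 51.6 to 52.8 CPM per kilobase.

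To ask whether the 2 drugs together moved the genes by more or less than the sum of their single changes on the log2 scale, the interaction was tested. All 9 estimates lay below 0, from -0.96 to -0.10 with a median of -0.65, beside 6643 of the 13694 tested genes below 0. For the genes that rose this means less than the sum, and for KEAP1 a deeper fall than the sum. The interaction passed an adjusted p of 0.01 in 1 of the 9, TXNRD1, beside 2.1% of all genes. TXNRD1 had a sum of single changes of 2.89 and a combination change of 1.93, an interaction of -0.95 (standard error 0.12, adjusted p = 0.0028, edgeR). HMOX1 had a sum of 4.19 and a combination change of 3.23 (interaction -0.96, standard error 0.20, adjusted p = 0.024, edgeR), and GCLM 2.21 and 1.42 (interaction -0.79, standard error 0.14, adjusted p = 0.011, edgeR).

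OSGIN1 had a sum of 3.63 and a combination change of 3.48, an interaction of -0.15 with an interval of -0.74 to 0.45. For SRXN1 the interaction was -0.32 (adjusted p = 0.22, edgeR), for GCLC -0.65 (adjusted p = 0.038, edgeR) and for KEAP1 -0.80 (adjusted p = 0.086, edgeR). The estimates share the same 8 libraries and are not 9 independent results. Their number past the threshold rested on single libraries, and so did the number over all tested genes. Both were higher when either EC359 library was left out, and lower without any one of the other 6 libraries. Without EC359 library 1 the estimate of NFE2L2 was 0.06, and without EC359 library 2 those of NQO1 and OSGIN1 were 0.02 and 0.09.

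**Figure D3:**
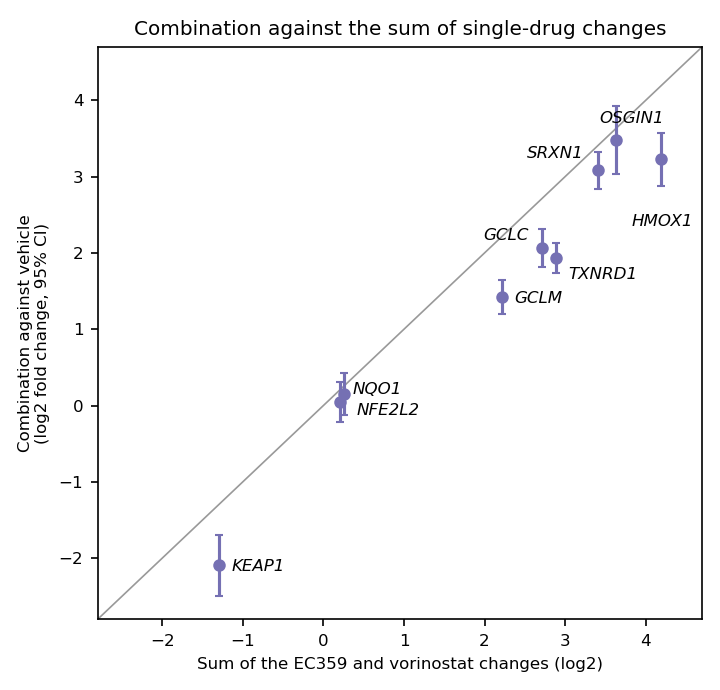
Log2 fold change of the combination against vehicle (vertical axis, with its 95% confidence interval) against the sum of the EC359 and vorinostat log2 changes (horizontal axis), 1 point for each of the 9 genes; the line marks equality. Every point lies below the line, TXNRD1 by 0.95 and OSGIN1 by 0.15.

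Other genes were taken from 7 lists of antioxidant, heme and detoxification functions and of NRF2 regulators, with 82 genes, of which 76 were tested. They are called other pathway genes below by their function, and whether NRF2 acts on each was not tested. Under EC359, 5 of the 76 were called higher and 2 lower, with a median log2 fold change of -0.04. Under vorinostat 26 were called higher and 6 lower, with a median of 0.62, and under the combination also 26 and 6, with a median of 0.55. All genes together had 3.67%, 30.1% and 34.8% called in these comparisons, in either direction, against 9.21%, 42.1% and 42.1% of the 76. The lists were chosen with earlier results of these data known, so these shares are descriptions. Of the 76, 7 were called on adding EC359 to vorinostat, 6 of them higher, beside 4.25% of all genes called and 3.37% called higher. The 76 did not rise as a set there: their median log2 change was -0.11, with 33 above 0 and 43 below.

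The list of 12 NRF2 regulators holds relatives of NRF2 beside its partners and controllers. Of these 12, 2 were called higher after EC359, 4 after vorinostat and 4 after both drugs, with 1 lower there. In either direction 16.7%, 33.3% and 41.7% were called, beside 3.67%, 30.1% and 34.8% of all genes. The 2 under EC359 were MAFF and MAFG. MAFF, a small MAF protein and so a possible partner of NRF2 on DNA, had 19.2 and 21.6 CPM with vehicle, 81.9 and 79.7 after EC359, 11.1 and 11.4 after vorinostat, and 169 and 187 after both. MAFF rose by 1.99 under EC359 and 3.13 under the combination (adjusted p = 6.1e-06 and 6.6e-08, edgeR), while its change under vorinostat was -0.86 (adjusted p = 1.3e-04, edgeR). MAFK, another small MAF protein, rose by 1.65 under vorinostat and 2.06 under the combination (adjusted p = 5.5e-06 and 1.2e-06, edgeR).

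SQSTM1, which encodes the autophagy receptor p62 that binds KEAP1, had 358 and 367 CPM with vehicle, 655 and 663 after EC359, 770.4 and 769 after vorinostat, and 2147 and 2112 after both. It rose by 1.09 under vorinostat and 2.55 under the combination (adjusted p = 2.2e-06 and 3.1e-08, edgeR). RBX1, the RING subunit of the ligase that KEAP1 serves, fell by 1.32 on the log2 scale under the combination (standard error 0.27, adjusted p = 0.0020, edgeR). CUL3, the scaffold of that ligase, had log2 changes of 0.15 to 0.18 in the 3 comparisons and was called in none.

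Of 13 tested genes of glutathione metabolism, 0 were called under EC359 by edgeR or DESeq2 (3 at an unadjusted edgeR p under 0.05). Under vorinostat 3 were called higher and 2 lower by edgeR, and under the combination 5 higher and 2 lower. In either direction 38.5% and 53.8% of the 13 were called there, beside 30.1% and 34.8% of all genes. Under EC359 3.67% of all genes were called. Vorinostat raised 16.8% and lowered 13.3% of all genes. CHAC1, which degrades glutathione, rose by 2.77 under vorinostat and 3.19 under the combination (adjusted p = 5.3e-07 and 1.8e-07, edgeR). GLRX, the cytosolic glutaredoxin, rose by 2.63 and 2.67 (adjusted p = 7.1e-07 and 4.3e-07, edgeR). SLC7A11, the cystine transporter subunit that feeds glutathione synthesis, had 67.8 and 74.4 CPM under vehicle and 230.2 and 202 under the combination, a rise of 1.60 (standard error 0.11, adjusted p = 1.6e-06, edgeR). GPX8, a peroxidase of the endoplasmic reticulum, fell by 1.81 under vorinostat and by 2.27 under the combination (adjusted p = 1.0e-06 and 2.3e-07, edgeR).

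The 10 thioredoxin system genes had 1 called higher under EC359, 2 higher and 1 lower under vorinostat, and 1 higher and 3 lower under the combination. These shares of 10%, 30% and 40% stood beside 3.67%, 30.1% and 34.8% of all genes, so the vorinostat share was that of all genes. The one higher in all 3 was TXNIP, which binds thioredoxin and inhibits it, at 53.0 and 53.8 CPM with vehicle, 151 and 182 after EC359, 927 and 919.8 after vorinostat, and 1605 and 1472 after both. TXNRD2, the mitochondrial counterpart of TXNRD1, fell by 1.72 under vorinostat and by 2.18 under the combination (adjusted p = 2.4e-04 and 5.8e-05, edgeR), where TXNRD1 rose. PRDX1, a cytosolic peroxiredoxin, rose by 1.68 under vorinostat (adjusted p = 1.9e-05, edgeR), and the mitochondrial PRDX3 fell by 1.54 under the combination (adjusted p = 3.7e-04, edgeR).

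Of 9 genes of heme and iron handling, 6 were called higher under vorinostat and 6 under the combination, and 0 under EC359 by edgeR or DESeq2 (2 at an unadjusted edgeR p under 0.05). Beside them, 16.8% of all genes were called higher under vorinostat and 19.5% under the combination, and 3.67% in either direction under EC359. FTH1, the heavy chain of the iron store ferritin, had 1088 and 918 CPM with vehicle, 2153 and 1238 after EC359, 2062 and 2026 after vorinostat, and 3895 and 5055 after both, and rose by 2.16 there (standard error 0.23, adjusted p = 3.7e-05, edgeR). FTL, the light chain, rose by 1.45 under vorinostat and 1.67 under the combination (adjusted p = 2.5e-06 and 8.4e-07, edgeR). BLVRB, a biliverdin reductase, rose by 1.91 and 1.40 (adjusted p = 1.3e-05 and 7.2e-05, edgeR), and the heme transporter SLC48A1 by 1.63 and 1.11 (adjusted p = 3.1e-05 and 3.1e-04, edgeR). FTH1, FTL and PRDX1 have many processed pseudogenes, so their counts are uncertain.

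Of 19 tested detoxification genes, 1 was called higher and 1 lower under EC359, 7 higher and 3 lower under vorinostat, and 5 higher and 0 lower under the combination by edgeR (6 and 0 by DESeq2, and 5 lower at an unadjusted edgeR p under 0.05). By edgeR 10.5%, 52.6% and 26.3% were called, beside 3.67%, 30.1% and 34.8% of all genes. The share under the combination was thus below that of all genes in either direction together. All of that 26.3% was called higher, beside 19.5% of all genes, and 0 were called lower, beside 15.3%. AKR1C1, an aldo-keto reductase, had 6 reads in each vehicle library, 29 and 34 under EC359, 65 and 91 under vorinostat, and 610 and 478 under the combination. It rose by 2.33, 3.65 and 6.60 on the log2 scale (standard errors 0.38, 0.33 and 0.30, adjusted p = 0.0034, 1.5e-05 and 2.1e-07, edgeR), although reads of its near-identical paralogs may be split. NQO2, a relative of NQO1, rose by 1.75 under vorinostat (adjusted p = 8.4e-06, edgeR) and also under the combination (adjusted p = 1.7e-05, edgeR). GSTM3, a glutathione transferase, rose by 1.40 and 1.06 (adjusted p = 2.1e-05 and 9.4e-05, edgeR), and CBR3, a carbonyl reductase, fell by 1.79 under vorinostat (adjusted p = 4.3e-05, edgeR).

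**Figure D4:**
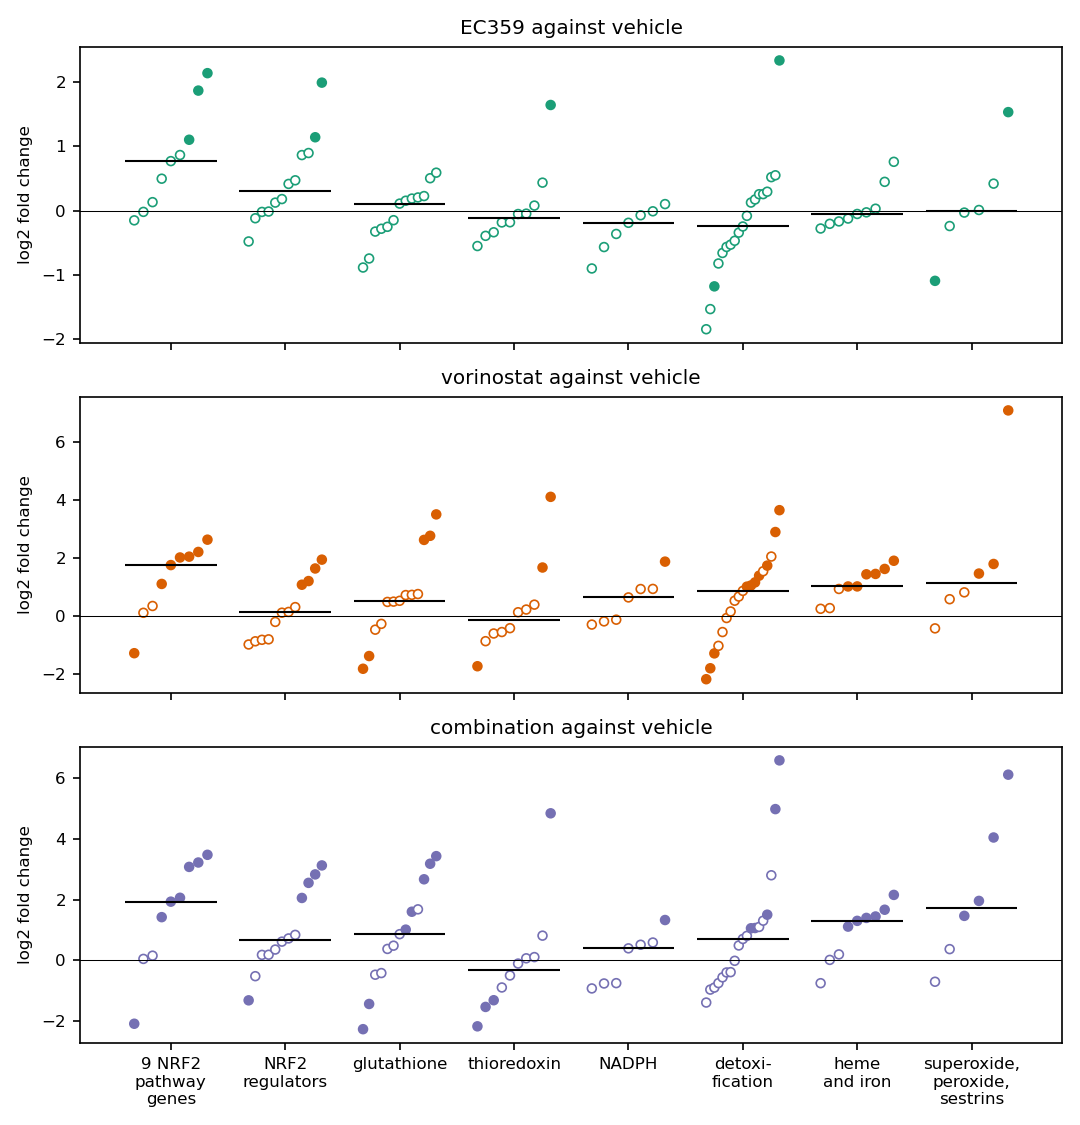
Log2 fold change against vehicle (vertical axes, different ranges) of the tested genes of the 8 lists in the 3 comparisons; each point is 1 gene, filled where it passed both thresholds, and the black line is the median of the list. Under EC359 the 9 NRF2 pathway genes have a median of 0.77 and the heme and iron list -0.05. The 9 genes and the lists were chosen with earlier results of these data known.

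Among all tested genes with an average log2 CPM of at least 3, the 3 whose centred log2 CPM lay nearest to HMOX1 over the 8 libraries were IFFO2, CEBPB and OSGIN1, at root mean square distances of 0.21, 0.24 and 0.24 where HMOX1 itself varied by 1.17. OSGIN1 is thus both one of the 9 genes and the third nearest of 9975 to HMOX1. CEBPB, a stress-responsive transcription factor, had a mean of 116 CPM with vehicle, 345 after EC359, 426 after vorinostat and 793 after both. For NQO1, which varied by 0.21, they were DNAJC5, SEC61B and PSMA5 at 0.05 to 0.06. For NFE2L2, which varied by 0.12, they were STIP1, TAF6 and CUL3 at 0.05. These are descriptions over 8 libraries that share their groups and depth.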

How the data were processed

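RNA was measured in 8 BT-549 libraries. Libraries were read from one end (50 bp), and the authors placed the reads on hg19 by TopHat2 2.0.8b, counted them per RefSeq gene by HTSeq and deposited these raw counts, 1 per gene symbol. The HTSeq version and strand setting are not given in the sources used here. The 5 HTSeq summary lines were left out of the gene counts, and genes held 85.1% to 88.1% of the uniquely aligned reads.

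Genes were filtered with filterByExpr and scaled by TMM in edgeR 4.0.16 (R 4.3.3), and 1 quasi-likelihood model with a mean per group was fitted to all 8 libraries. The Benjamini-Hochberg adjustment ran over 13694 genes, and each standard error was the size of the log2 change divided by the root of F. An interaction was called at an adjusted p under 0.01 alone. Alternatives included DESeq2 1.42.0, other scalings and filters, the replicate number as a block and leaving out each library. The fit was tested on simulated data.

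Each library held 19069450 to 24759041 counts on genes, which with 2 libraries a group sets the precision. Gene positions came from GENCODE on GRCh37, the build of hg19, as did the lengths of canonical transcripts. Gene models that overlap exons of NFE2L2, NQO1, GCLC and SRXN1 have no row of their own by name in the count files. The 9 genes and the lists were chosen with earlier results of these data known. All 9 genes are named, with up to 4 genes of each list that were called against vehicle, did not overlap vehicle and had an average log2 CPM of at least 3, those with the largest changes, and the 3 nearest genes to HMOX1, NQO1 and NFE2L2. CUL3 and BACH1 are named also for their roles, and MAFG as 1 of the 2 genes of its list called under EC359. Of these, 1 gene is not reported here. Figures were drawn with Python 3.11.15.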

Additional observations from a re-analysis of the deposited data

Results flagged for a closer look

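For TXNRD1 the effect of EC359 differed with and without vorinostat, by an interaction of -0.95 on the log2 scale (standard error 0.12, adjusted p = 0.0028, edgeR). EC359 alone moved it by 0.86 and EC359 added to vorinostat by -0.09. The estimate was below 0 in each of 15 alternatives, from -1.10 to -0.92, and its adjusted p ranged from 5.1e-09 to 0.028 (edgeR or DESeq2). It did not pass 0.01 when either library of vehicle, of vorinostat or of the combination was left out.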

How the results depend on the processing

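Of the 9 genes, the numbers called against vehicle stayed at 3 for EC359, 7 for vorinostat and 7 for both drugs, with 2 exceptions among the 18 alternatives, both under EC359: 5 with no fold threshold and 2 with only the libraries of the 2 groups in the fit. On adding EC359 to vorinostat, leaving out 1 library gave 1 to 2 genes called, 1 without combination library 1 or either vorinostat library. Against EC359 alone the combination kept 4 to 6 called when 1 library was left out. The number of interactions called, 1, was the least stable: 4 at an adjusted p under 0.05, 4 by DESeq2, 3 with no filter on low counts, 2 with scaling by total counts, and 0 to 5 when 1 library was left out.

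Of the 76 other pathway genes, dropping the fold threshold gave 13 called after EC359, 51 after vorinostat, 55 after both drugs and 21 on adding EC359 to vorinostat. Over all 13694 tested genes these counts were 1071, 7130, 7718 and 1877. With only the libraries of the 2 groups, 4 of the 76 were called under EC359, beside 233 of 12545 genes. Their interactions, 5 called, were 11 at an adjusted p under 0.05, 8 by DESeq2, 3 with scaling by total counts, and 1 to 19 when 1 library was left out. The cause of these changes was not tested.

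Libraries with the same replicate number had no common deviation over the 4 groups. The correlations of their deviations had both signs over the 6 pairs of groups, from -0.173 for EC359 with the combination to 0.231 for vehicle with EC359. The numbers were therefore not taken to pair the libraries. When a replicate block was added, the 9 genes had 3, 7, 7, 2, 6 and 1 called in the 6 comparisons, as without it. The other pathway genes then had 3 interactions called, beside 189 of 13694 tested genes. With the numbers of the combination exchanged, an alternative chosen after seeing the data, 3 of the 9 interactions were called, beside 477 of 13694.

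Signs turned only for estimates that were called in no fit. For KEAP1 under EC359 the log2 fold change was 0.0030 with no filter and 0.0033 with only 2 groups, and -0.25 to 0.19 when 1 library was left out. For NFE2L2 in the combination against EC359 it was -0.0021 by DESeq2, -0.0020 with RLE scaling, -0.041 with total counts, -0.038 with no filter and -0.020 with only 2 groups, and -0.14 to 0.17 when 1 library was left out. Against vorinostat NFE2L2 had -0.0031 by DESeq2, -0.0031 with RLE scaling, -0.056 with total counts and -0.0064 with no filter, and -0.072 to 0.055 when 1 library was left out. NQO1 in the combination against vehicle had -0.036 with total counts, and -0.075 to 0.10 when 1 library was left out. Leaving out 1 library also gave -0.030 to 0.29 for NFE2L2 and -0.33 to 0.019 for NQO1 under EC359, and interactions of -0.25 to 0.064 for NFE2L2, -0.33 to 0.024 for NQO1 and -0.36 to 0.085 for OSGIN1. With 2 libraries a group, changes near a log2 of 1 and interactions were the least certain, and at 64 to 73 reads a library OSGIN1 in vehicle had the thinnest counts of the 9.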

Other observations

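Among the 76 other pathway genes the interaction of the drugs passed an adjusted p of 0.01 in 5, beside 2.1% of all tested genes, 4 of them above the added single changes and 1 below. This count was higher when either EC359 library was left out and lower without any one of the other libraries. The number over all tested genes moved the same way. SESN2, a sestrin induced by several kinds of stress, had 24.1 and 25.7 CPM with vehicle, 65.0 and 79.1 after EC359, 68.2 and 70.1 after vorinostat, and 422 and 405 after both, and its interaction was 1.05 (standard error 0.15, adjusted p = 0.0054, edgeR). MAFF had an interaction of 2.00 (standard error 0.15, adjusted p = 1.7e-04, edgeR) and SQSTM1 of 0.61 (standard error 0.10, adjusted p = 0.0092, edgeR). CAT, the catalase that removes hydrogen peroxide, had 79.1 and 79.4 CPM with vehicle, 35.3 and 39.0 after EC359, 279 and 273 after vorinostat, and 307 and 309 after both. It fell by 1.09 under EC359 and rose by 1.80 under vorinostat (adjusted p = 6.6e-05 and 5.3e-07, edgeR), with an interaction of 1.25 (standard error 0.12, adjusted p = 7.5e-04, edgeR). TXNIP lay below the sum, by -0.90 (standard error 0.14, adjusted p = 0.0082, edgeR). SOD2, the mitochondrial superoxide dismutase, rose by 1.47 under the combination (adjusted p = 5.7e-06, edgeR). Of the 6 tested genes for the removal of superoxide and peroxide and sestrins, 1 was called higher (SESN2) and 1 lower (CAT) under EC359, 3 higher under vorinostat and 4 higher under the combination. Over all tested genes 1.94% were called higher and 1.72% lower under EC359, 16.8% higher under vorinostat and 19.5% higher under the combination.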
